A study of Mus musculus with 4 samples.

Results

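Bhlhe41, Zbtb32, Sox5, Cd5, Il5ra, Fcrl5, Nr3c2 and Hepacam2 were read as a set of B-1 cell regulators and receptors, 8 of the 32285 genes counted in blood mononuclear cells of mice. They were listed by symbol as genes of B-1 cell identity, and each symbol matched 1 gene identifier. The blood came from the inbred strains BL/6 and SM/J at 12 and 20 months of age, and no treatment, transgene or allele is named. Each strain and age gave 1 library of droplet single-cell counts, and both ages of a strain shared 1 multiplexed 10x sample. Strain and 10x sample therefore cannot be told apart, and there is no replicate library. Cells of each library carried 3 tags. The tagged aliquots are not known to be separate animals, so their range is given as a description and no test was made.

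B-1 cells are innate-like B lymphocytes that renew themselves in the body cavities, circulate in small numbers in blood and secrete natural IgM. Follicular B cells, which carry CD23 (encoded by Fcer2a), make up most circulating B cells. The set holds transcription factors linked to B-1 cells beside surface molecules, among them a chain of the receptor for the cytokine IL-5. CD5 marks the B-1a branch of this lineage, and T cells also carry it.

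B cells were cells with at least 2 UMIs (counted molecules) of Cd79a, a subunit of the B cell receptor. Those with at least 5 UMIs of Zcwpw1, a histone-mark reader, are called Zcwpw1-high, other B cells with a Fcer2a UMI are called Fcer2a-positive, and the others are called remaining B cells. These gates are ranges of counts and not sorted types, and a shallow cell can miss a Fcer2a UMI. Zcwpw1-high cells numbered 49 of 1921 B cells in BL/6 at 12 months, 8 of 966 in BL/6 at 20 months, 23 of 1285 in SM/J at 12 months and 911 of 1644 (55.4%, exact 95% interval 53.0% to 57.8%) in SM/J at 20 months. Fcer2a-positive cells numbered 978, 402, 323 and 117 in that order of libraries, and remaining cells 894, 556, 939 and 616. Among the remaining cells, those with at least 2 UMIs of Fras1 and Lmo7 together numbered 19, 13, 377 and 154, and plasma-gated cells 1, 10, 0 and 1. A Fcer2a UMI was also found in 3, 0, 4 and 13 of the Zcwpw1-high cells. B cells with 4 Zcwpw1 UMIs, just outside the gate, numbered 4, 1, 5 and 12, and those with 5 UMIs 2, 2, 0 and 16. The median depth of Zcwpw1-high cells was between 9570.5 and 13077 UMIs, against 3230 to 3606.5 in Fcer2a-positive cells. The 3 tagged aliquots of SM/J at 20 months held 287 to 315 Zcwpw1-high cells each. The 20-month SM/J library stands apart from the others in depth, with a median of 8837 UMIs per kept cell against 4060 to 4914. In the 12-month libraries 20 (BL/6) and 28 (SM/J) of the deposited cells carried a tag of the other age, and they entered no aliquot. Those that passed the filters stayed in the sums of their 12-month library. Levels below are counts per 1000000 UMIs (CPM), which are the UMIs of a gene summed over the cells of a class in a library and divided by all gene UMIs of those cells, with exact Poisson 95% intervals for counting error only.

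The set was first read against other lineages. All 8 genes had UMIs in each library. In the T-, NK-, monocyte- and macrophage-gated cells, Bhlhe41, Zbtb32, Fcrl5 and Hepacam2 had at most 7.99 CPM, and Il5ra at most 25.2 CPM (4 UMIs in 56 NK-gated cells). Sox5 reached 95.2 CPM (62.2 to 140) in NK-gated cells of BL/6 at 20 months, an interval that overlapped that of the Fcer2a-positive cells of that library (129 to 167). Nr3c2 was also seen outside B cells, at 14.7 to 49.7 CPM in T-gated, 46.2 to 117 in NK-gated and 35.0 to 77.6 in macrophage-gated cells. Cd5 went against the label: it had 98.3 to 149 CPM in T-gated cells and only 1.63 to 8.35 CPM over all B cells.

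**Figure D1:**
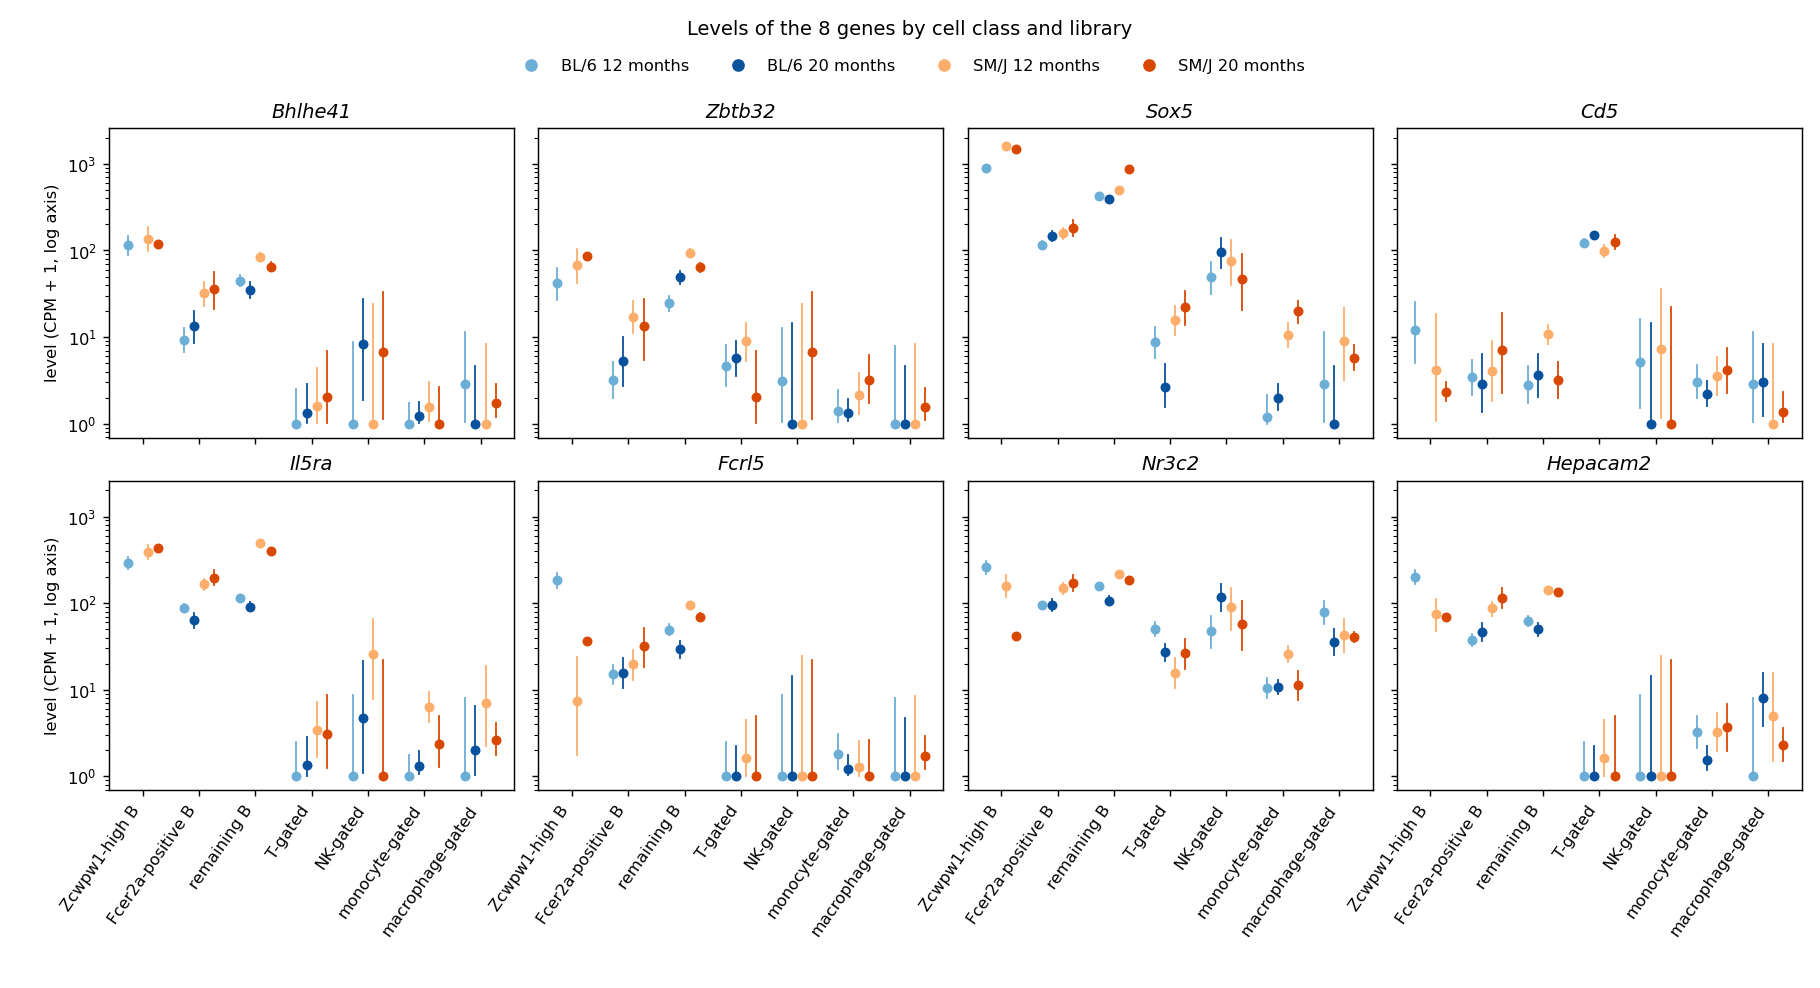
Level of each gene (y axis, CPM + 1, log axis) in 7 gated cell classes (x axis) of the 4 libraries (colours), with exact Poisson 95% intervals as lines; classes of fewer than 20 cells in a library are left out. Sox5 is highest in Zcwpw1-high cells (891 to 1617 CPM in the 3 libraries shown), whereas Cd5 is highest in T-gated cells.

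The files name the genes ENSMUSG00000030256 (Bhlhe41), ENSMUSG00000006310 (Zbtb32), ENSMUSG00000041540 (Sox5), ENSMUSG00000024669 (Cd5), ENSMUSG00000005364 (Il5ra), ENSMUSG00000048031 (Fcrl5), ENSMUSG00000031618 (Nr3c2) and ENSMUSG00000044156 (Hepacam2). Positions are those of GENCODE vM21 on GRCm38. Bhlhe41 (chr6:145858243-145865558, minus strand), Sox5 (chr6:143828425-144781977, minus), Il5ra (chr6:106710357-106749037, minus) and Hepacam2 (chr6:3457096-3498298, minus) share chromosome 6. Zbtb32 is at chr7:30589681-30598909 (minus), Cd5 at chr19:10717116-10739002 (minus), Fcrl5 at chr3:87435773-87500678 (plus) and Nr3c2 at chr8:76899442-77245012 (plus). Sox5 spans 954 kb and overlaps 7 annotated genes, among them the antisense RNAs Sox5os1 to Sox5os5 and the sense intronic Sox5it. Nr3c2 overlaps 3, one of them the divergent Gm10649. No label or header says whether counting used strand, so the genes of an overlapping pair cannot be told apart with certainty.

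The promoters of Bhlhe41 and Fcrl5 are shown because, of the 8 genes, only the stretches searched for these held a motif. The E-box CACGTG is a site of basic helix-loop-helix proteins such as Bhlhe41, and AACAAT is a core bound by Sox proteins such as Sox5. Both strands of the 300 bases from 250 before to 50 after each RefSeq start were searched, with 1 start per gene and 2 for Zbtb32. The windows of Sox5 (chr6:143947057-143947356), Nr3c2 (chr8:76902080-76902379) and Hepacam2 (chr6:3494449-3494748) lay inside the GENCODE gene, as did 1 of the Zbtb32 windows. For Sox5, Nr3c2 and Hepacam2 the bases before the GENCODE start were therefore not searched. CACGTG was found in Bhlhe41 alone, against 7.15% of 32851 promoters of the same length, and AACAAT at 2 places in Fcrl5 alone, against 10.7%. TTCNNNGAA, a STAT site held by 8.30% of promoters, was in none of the windows. Neither was the steroid receptor element, AGAACA and TGTTCT set 3 bases apart, which 0.00913% of promoters held. The bases before both the RefSeq and the GENCODE start were chr6:145865559-145865670 (minus strand) for Bhlhe41 and chr3:87435532-87435772 (plus strand) for Fcrl5, from RefSeq on GRCm38.p6. They are written 5′ to 3′ on the gene's strand, with the motifs in capitals.
Bhlhe41: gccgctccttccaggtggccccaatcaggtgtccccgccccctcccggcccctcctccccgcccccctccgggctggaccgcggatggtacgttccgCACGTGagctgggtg
Fcrl5: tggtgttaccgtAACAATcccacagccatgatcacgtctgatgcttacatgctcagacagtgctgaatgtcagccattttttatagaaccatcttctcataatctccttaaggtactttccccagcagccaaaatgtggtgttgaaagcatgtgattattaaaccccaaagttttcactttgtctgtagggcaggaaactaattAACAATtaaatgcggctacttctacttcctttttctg
Counted from the RefSeq start, the Bhlhe41 motif begins at position -153, and the Fcrl5 motifs at -238 and -46. A match describes letters and shows no binding. The motifs overlap no other searched motif.

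Of the regulators, Bhlhe41, a transcriptional repressor needed to keep B-1a cells, was high in Zcwpw1-high cells of all 4 libraries. Its level there was 115 CPM (87.9 to 147) in BL/6 at 12 months, 91.5 (39.5 to 180) at 20 months, 136 (98.7 to 184) in SM/J at 12 months and 119 (113 to 124) at 20 months. In Fcer2a-positive cells it was 8.32 (5.76 to 11.6), 12.3, 30.9 and 34.8 CPM (20.3 to 55.7) in the same order. The Zcwpw1-high intervals overlapped one another, and each lay above the Fcer2a-positive interval of its own library. Remaining cells lay between, at 44.0, 34.2, 83.4 and 63.7 CPM.

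Zbtb32, a zinc-finger repressor that limits B cell activation, had another order. In Zcwpw1-high cells it had 40.7 CPM (25.5 to 61.6) in BL/6 at 12 months, 45.8 (12.5 to 117, from 4 UMIs) at 20 months, 66.6 (41.2 to 102) in SM/J at 12 months and 85.2 (80.7 to 89.9) at 20 months. Its highest level in a class of 50 or more cells was in the Fras1/Lmo7-gated cells of SM/J at 12 months, at 125 CPM (113 to 139). Fcer2a-positive cells had 2.20, 4.32, 16.2 and 12.3 CPM. In BL/6 at 20 months the 10 plasma-gated cells had 118 CPM (67.6 to 192, 16 UMIs).

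Sox5, an SRY-box transcription factor, was high in Zcwpw1-high cells of all 4 libraries. These cells had 891 CPM (814 to 975) in BL/6 at 12 months, 1076 (869 to 1316) at 20 months, 1617 (1480 to 1764) in SM/J at 12 months and 1478 (1459 to 1497) at 20 months. Fcer2a-positive cells had 116, 147, 156 and 180 CPM. The BL/6 and SM/J intervals of the Zcwpw1-high cells did not overlap, with SM/J higher. After every cell was thinned to 2000 UMIs, a Sox5 UMI was found in 758 of 911 Zcwpw1-high cells of SM/J at 20 months (83.2%, 80.6% to 85.6%) and in 18 of 112 Fcer2a-positive cells (16.1%, 9.81% to 24.2%). Unthinned, the counts were 902 of 911 cells and 22.2% of the 117. Monocyte-gated cells of that library, which should lack the gene, gave 3.26% thinned and 10.3% unthinned at a median of 6891 UMIs.

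Nr3c2, the mineralocorticoid receptor, had the opposite order in SM/J at 20 months. Zcwpw1-high cells had 259 CPM (218 to 306) in BL/6 at 12 months, 206 (122 to 326) at 20 months, 159 (118 to 209) in SM/J at 12 months and 41.0 (37.9 to 44.3) at 20 months. Fcer2a-positive cells had 93.0, 93.7, 148 and 170 CPM (135 to 211). Among B subsets of 20 or more cells, those Zcwpw1-high cells of SM/J at 20 months alone had an interval below the Fcer2a-positive one of their library, and their 3 aliquots had 38.5 to 43.5 CPM. Fras1/Lmo7-gated cells of SM/J had 262 (244 to 281) and 255 CPM (228 to 285). Thinned to 2000 UMIs, a Nr3c2 UMI was seen in 8.89% of the Zcwpw1-high cells of SM/J at 20 months (7.12% to 10.9%) and in 23.2% of Fcer2a-positive cells (15.8% to 32.1%), against 1.09% of monocyte-gated cells. Unthinned, the shares were 29.0%, 32.5% and 4.63%.

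Of the surface molecules, Cd5 was sparse in B cells. Zcwpw1-high cells of BL/6 at 12 months had 11.1 CPM (4.07 to 24.2, 6 UMIs), those of SM/J at 12 months 1 UMI in 23 cells, those of BL/6 at 20 months 0 UMIs in 8 cells, and the 911 of SM/J at 20 months 21 UMIs, or 1.34 CPM (0.830 to 2.05). The monocyte-gated cells of that last library had 3.13 CPM (1.26 to 6.46), so Cd5 in those 911 cells was not above the level of cells that should lack it. Thinned to 2000 UMIs, 0 of the 911 cells kept a Cd5 UMI, with an exact upper limit of 0.404%. That limit is on cells with a UMI at that depth and sets none on cells that express Cd5 at a low level. Unthinned, 2.09% had one, as had 2.14% of monocyte-gated cells. The Fras1/Lmo7-gated cells of SM/J at 12 months stood higher, at 15.3 CPM (11.1 to 20.4, 45 UMIs), with 14.2 to 17.8 CPM in the aliquots. The 5 T cell markers summed to 15.95 CPM in these cells, with Trac at 0 and the other 4 detected. In T-gated cells of the same library they summed to 2182 CPM beside 98.3 CPM of Cd5. At 20 months the Fras1/Lmo7-gated cells had 3 Cd5 UMIs, all in 1 aliquot of 29 cells, or 2.42 CPM (0.499 to 7.07).

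Il5ra, the ligand-binding chain of the IL-5 receptor, was higher in SM/J than in BL/6 among Fcer2a-positive and among remaining cells. Fras1/Lmo7-gated cells had the highest levels of any B subset of 20 or more cells, at 693 CPM (663 to 723) in SM/J at 12 months and 629 (586 to 675) at 20 months. Zcwpw1-high cells had 292 CPM (248 to 341) in BL/6 at 12 months, 572 (425 to 754) at 20 months, 390 (324 to 465) in SM/J at 12 months and 429 (419 to 440) at 20 months. Fcer2a-positive cells had 87.6 and 62.9 CPM in BL/6 and 163 and 196 CPM in SM/J. The latter 2 intervals overlapped (142 to 187 and 159 to 240), and both lay above those of BL/6.

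Fcrl5, an Fc receptor-like protein of innate-like B cells, split the Zcwpw1-high cells by strain. It had 183 CPM (149 to 223) in BL/6 at 12 months and 240 (149 to 367) at 20 months, but 6.34 (0.768 to 22.9, 2 UMIs) in SM/J at 12 months and 35.7 (32.8 to 38.8) at 20 months. The Fras1/Lmo7-gated SM/J cells had 145 CPM (131 to 159) at 12 months and 139 (119 to 161) at 20 months. Fcer2a-positive cells had 14.2, 14.8, 18.6 and 30.7 CPM (17.2 to 50.6), so in SM/J at 20 months the Zcwpw1-high and Fcer2a-positive intervals overlapped.

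Hepacam2, an adhesion protein of the immunoglobulin superfamily, was higher in the Zcwpw1-high cells of BL/6 at 12 months than in those of either SM/J library. Zcwpw1-high cells had 202 CPM (166 to 243) in BL/6 at 12 months, 137 (70.9 to 240) at 20 months, 72.9 (46.2 to 109) in SM/J at 12 months and 68.0 (64.0 to 72.2) at 20 months. Fras1/Lmo7-gated cells of SM/J had 179 (164 to 195) and 195 CPM (171 to 221). Fcer2a-positive cells had 36.7 and 45.6 CPM in BL/6 and 85.8 and 115 CPM in SM/J, so Fcer2a-positive cells had less Hepacam2 than Zcwpw1-high cells in BL/6 but not in SM/J.

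**Figure D2:**
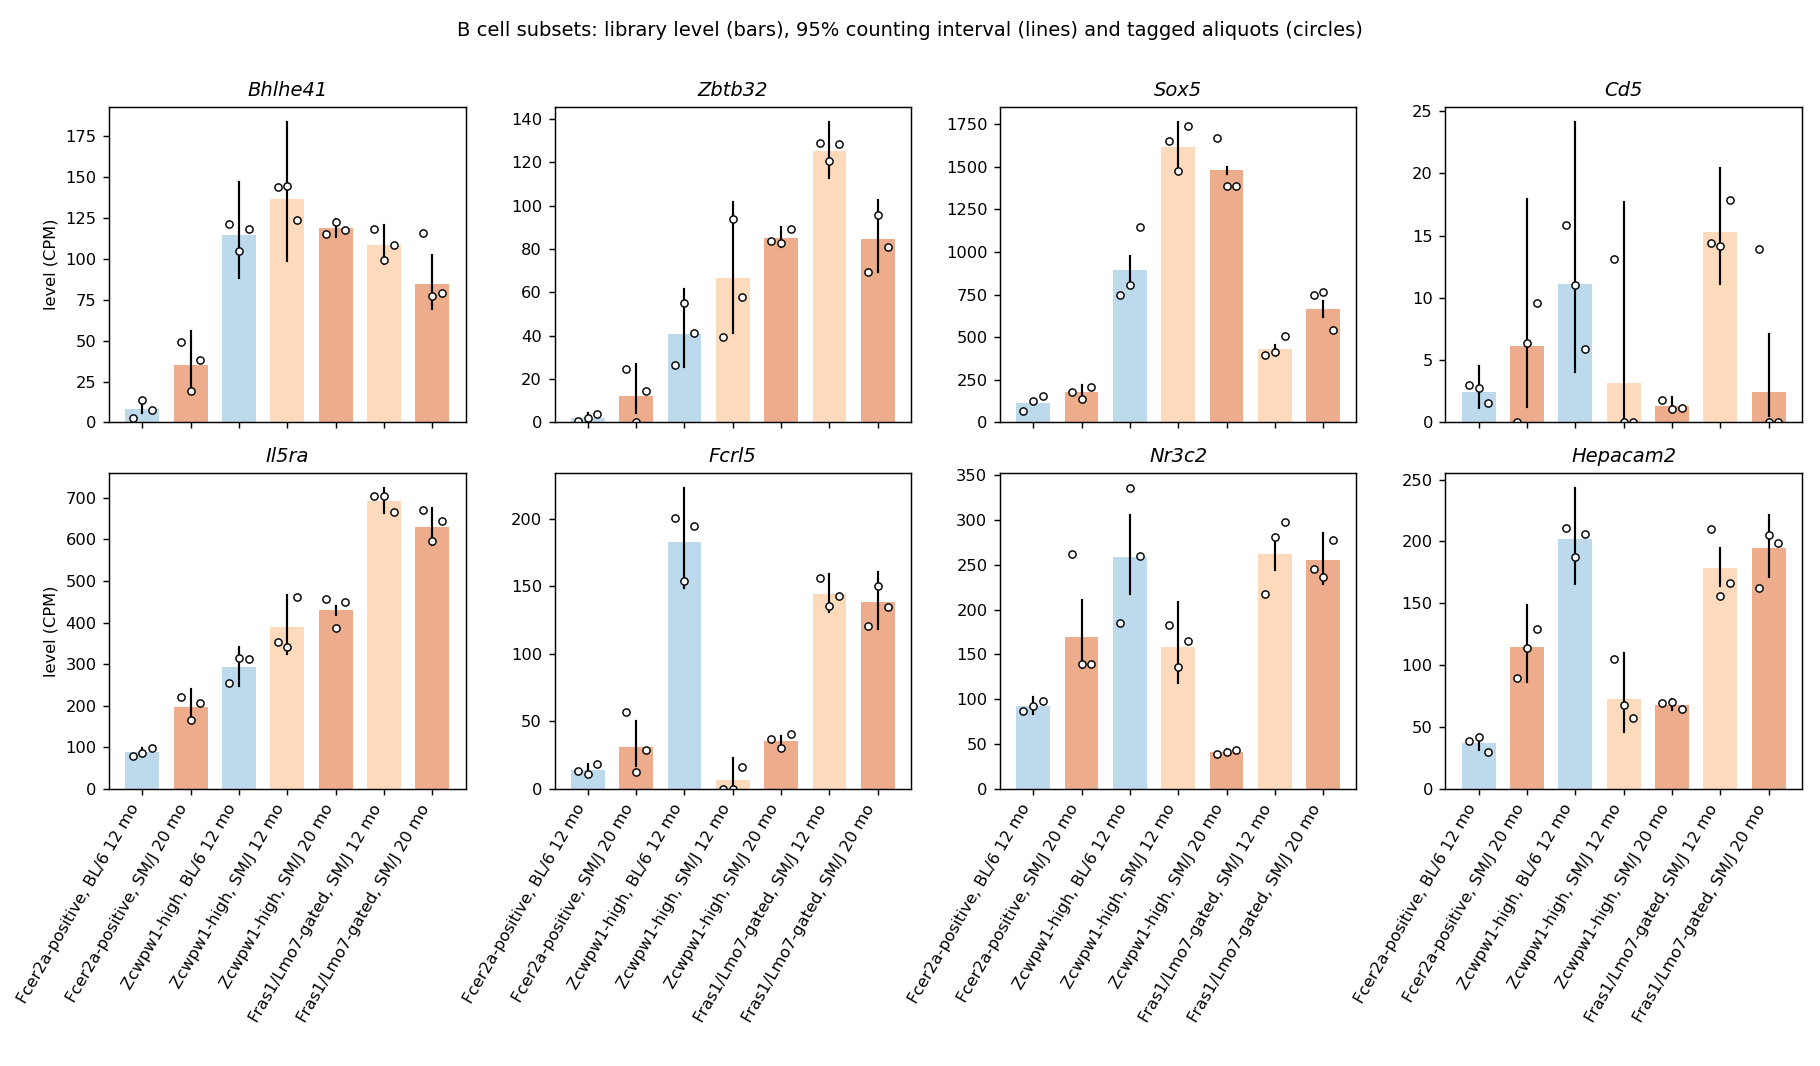
Level of each gene (y axis, CPM, from 0) in 7 pairs of B cell subset and library (x axis); bars are the pooled cells of a library, lines the exact Poisson 95% interval, circles the 3 tagged aliquots, which are not known to be animals. Zcwpw1-high cells of BL/6 at 12 months have 183 CPM of Fcrl5 and 259 of Nr3c2, those of SM/J at 20 months 35.7 and 41.0.

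Subsets within a library were then compared gene by gene. A gene counted as past 2-fold when its log2 ratio of CPM was at least 1 in size and the pair of sums held at least 20 UMIs together. In BL/6 at 12 months, 7 of the 7 members with enough UMIs were past 2-fold, all higher in Zcwpw1-high than in Fcer2a-positive cells (26.3% of 9437 genes were past 2-fold, 6% higher and 20.3% lower). The log2 ratios ran from 1.48 (1.19 to 1.76) for Nr3c2 to 4.21 (3.03 to 5.51) for Zbtb32. Cd5, with 6 and 10 UMIs, was at 2.18 (0.44 to 3.78). The T cell markers summed to 33.3 CPM in these Zcwpw1-high and 12.5 CPM in the Fcer2a-positive cells, and their part in the Cd5 ratio was not tested. This comparison was picked after the levels had been seen.

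In SM/J at 20 months the same comparison gave 4 members past 2-fold higher and 2 lower of 8 (29.6% of 11512 genes, 11.3% higher and 18.3% lower). Higher were Sox5 at 3.04 (2.74 to 3.36), Zbtb32 at 2.79 (1.67 to 4.24), Bhlhe41 at 1.77 (1.09 to 2.55) and Il5ra at 1.13 (0.84 to 1.43). Lower were Nr3c2 at -2.05 (-2.38 to -1.70) and Cd5 at -2.19 (-3.94 to 0.19), the latter on 21 and 3 UMIs. Fcrl5 was at 0.22 (-0.52 to 1.07) and Hepacam2 at -0.75 (-1.14 to -0.34). With the 13 cells that met both gates counted as Fcer2a-positive, Sox5 moved to 0.81, Il5ra to 0.15, Bhlhe41 to 1.16, Zbtb32 to 1.44 and Cd5 to -1.42. Among B cells of at least 4000 UMIs Il5ra was at 0.55, Zbtb32 at 1.84, Hepacam2 at -1.36 and Fcrl5 at -0.63. With a mitochondrial limit of 5% Fcrl5 was at 1.98 and Cd5 at -3.89, and as a mean of per-cell CPM Fcrl5 was at 1.15. The direction of Fcrl5 therefore changed with the setting. Without aliquot 3 Cd5 was at -1.34. The 6 macrophage markers summed to 647 CPM in the Fcer2a-positive and 99.1 CPM in the Zcwpw1-high cells of this library. With B cells holding UMIs of other lineages left out, Il5ra was at 0.95. With each cell thinned to 2000 UMIs Zbtb32 was at 4.31, Bhlhe41 at 3.29, Il5ra at 1.73 and Hepacam2 at 0.0095.

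The Zcwpw1-high cells of the strains were next set side by side, a comparison picked after their levels had been seen and crossing strain, age and 10x sample. SM/J at 20 months over BL/6 at 12 months gave 1 member past 2-fold higher and 4 lower of 8 (21.7% of 11458 genes, 12.8% higher and 8.91% lower). Zbtb32 was higher at 1.07 (0.46 to 1.75). Nr3c2 was lower at -2.66 (-2.92 to -2.38), Fcrl5 at -2.36 (-2.67 to -2.04), Hepacam2 at -1.57 (-1.85 to -1.27) and Cd5 at -3.05 (-4.41 to -1.45). Bhlhe41, at 0.05 (-0.32 to 0.44), had an interval that includes 0. Within SM/J, 911 cells at 20 months over 23 at 12 months gave 3 of 8 past 2-fold (18% of 11420 genes, 7.98% higher and 10% lower): Fcrl5 higher at 2.49 (0.63 to 5.54, 559 and 2 UMIs), Nr3c2 lower at -1.95 (-2.37 to -1.51) and Cd5 at -1.24 with an interval that includes 0. The T cell markers summed to 69.8 CPM in the 23 cells and 4.79 CPM in the 911, and the part of this in the ratios was not tested.

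Against the Fras1/Lmo7-gated cells of the same library, also picked after the levels had been seen, the Zcwpw1-high cells of SM/J at 20 months had 1 member past 2-fold higher and 3 lower of 8 (21.3% of 11580 genes, 11.3% higher and 10.1% lower). Sox5 was higher at 1.15 (1.05 to 1.26), while Nr3c2 at -2.64, Fcrl5 at -1.96 and Hepacam2 at -1.52 were lower. Zbtb32 was at 0.01 (-0.28 to 0.31).

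Zbtb32 and Sox5 were past 2-fold higher in remaining than in Fcer2a-positive cells of all 4 libraries, a call that both lost in SM/J at 20 months when the 13 cells of both gates were counted as Fcer2a-positive. The other members varied. Past 2-fold higher were 4 of 7 members in BL/6 at 12 months (4.93% of 10525 genes, 3.74% higher and 1.19% lower), 3 of 7 in BL/6 at 20 months (8.05% of 9517 genes, 5.93% higher and 2.12% lower), 6 of 8 in SM/J at 12 months (12.6% of 10427 genes, 8.23% higher and 4.34% lower) and 4 of 7 in SM/J at 20 months (13.8% of 9640 genes, 8.03% higher and 5.75% lower), and no member was past 2-fold lower. Zbtb32 had log2 ratios of 2.37 to 3.48 and Sox5 of 1.42 to 2.29. Nr3c2 and Hepacam2 were past 2-fold in none of the 4, and their intervals included 0 in both 20-month libraries (Nr3c2 at 0.17 for BL/6 and 0.12 for SM/J, Hepacam2 at 0.11 and 0.21). Cd5 was at 1.67 (0.24 to 3.60) in SM/J at 12 months, where it was past 2-fold. In the other libraries it had too few UMIs to be counted, at -0.45 and 0.51 in BL/6 at 12 and 20 months and -1.5 in SM/J at 20 months, and its BL/6 ratios changed sign with the setting (0.69 at 12 months with the gate at 1 Cd79a UMI, -0.45 at 20 months with a mitochondrial limit of 5%). Sox5 in BL/6 at 20 months was at 0.90 without aliquot 3, and Il5ra and Fcrl5 in SM/J at 20 months were at 0.95 and 0.61 without aliquot 2. They were at 0.70 and 0.88 with the gate at 1 Cd79a UMI, and Il5ra was at 0.72 with a mitochondrial limit of 5% and at 0.92 with B cells holding UMIs of other lineages left out. Other settings gave higher values. Fcrl5 in BL/6 at 20 months, at 0.93, was past 2-fold under 8 alternatives (1.01 to 1.45, among them 1.25 without aliquot 1). Bhlhe41 in SM/J at 20 months, at 0.87, was past 2-fold under 6 (1.01 to 2.00, the highest when thinned to 2000 UMIs, and 1.03 and 1.01 without aliquots 1 and 3). Fcrl5 in SM/J at 20 months was at 1.83 without aliquot 1, 1.99 as a mean of per-cell CPM and 2.33 with a mitochondrial limit of 5%, and Zbtb32 in BL/6 at 12 months at 5.19 when thinned. In SM/J at 20 months the remaining cells other than the Fras1/Lmo7-gated ones had 979 CPM of Sox5, 42.7 CPM of Zcwpw1 and 1410 CPM of the 6 macrophage markers summed, against 571, 17.9 and 245 CPM at 12 months. The part of those cells in the ratios was not tested. With the 13 cells of both gates counted as Fcer2a-positive, the count of SM/J at 20 months was 1, and Zbtb32 was at 0.998, Il5ra at 0.081 and Sox5 at 0.073. A mitochondrial limit of 5% put Cd5 at 0.37 and Sox5 at 2.62 in SM/J at 12 months and Sox5 at 1.01 in BL/6 at 12 months, and a minimum of 4000 UMIs put Bhlhe41 in SM/J at 12 months at 0.78, Hepacam2 in BL/6 at 12 months at 1.25, and Il5ra and Fcrl5 in SM/J at 20 months at 0.58 and 0.42.

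Single cells were read for how many of the 8 genes had a UMI, a number that follows the level of each gene. Thinned to 2000 UMIs, 25 of 49 Zcwpw1-high cells of BL/6 at 12 months held UMIs of 3 or more of the 8 genes (51.0%, 36.3% to 65.6%), 8 of 23 in SM/J at 12 months (34.8%, 16.4% to 57.3%) and 264 of 911 in SM/J at 20 months (29.0%, 26.1% to 32.0%). Thinned to 1000 UMIs, the first and last shares were 18.4% (8.76% to 32.0%) and 9.99% (8.12% to 12.1%), with intervals that overlapped. Among Fras1/Lmo7-gated cells of SM/J the share was 169 of 377 (44.8%) at 12 months and 53 of 154 (34.4%) at 20 months, or 18.3% and 14.3% at 1000 UMIs. Fcer2a-positive cells gave 1.23%, 1.75%, 4.75% and 5.36% in the 4 libraries. Thinning left out 5, 1, 7 and 5 Fcer2a-positive cells and none of the Zcwpw1-high or Fras1/Lmo7-gated ones. Within the Zcwpw1-high cells of SM/J at 20 months, a Zbtb32 UMI was found in 16.7% of cells with a Bhlhe41 UMI and in 16.1% of those without, a Sox5 UMI in 81.8% and 83.6%, and a Nr3c2 UMI in 10.8% and 8.33%. Among the remaining cells of BL/6 at 12 months the shares with and without a Bhlhe41 UMI lay further apart, at 8.77% and 3.04% for Zbtb32, 57.9% and 21.7% for Sox5 and 24.6% and 17.1% for Nr3c2, with 57 cells that held Bhlhe41. In the remaining cells of SM/J at 20 months (58 cells with Bhlhe41) they were 5.17% and 8.55%, 46.6% and 44.7%, and 32.8% and 25.3%.

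**Figure D3:**
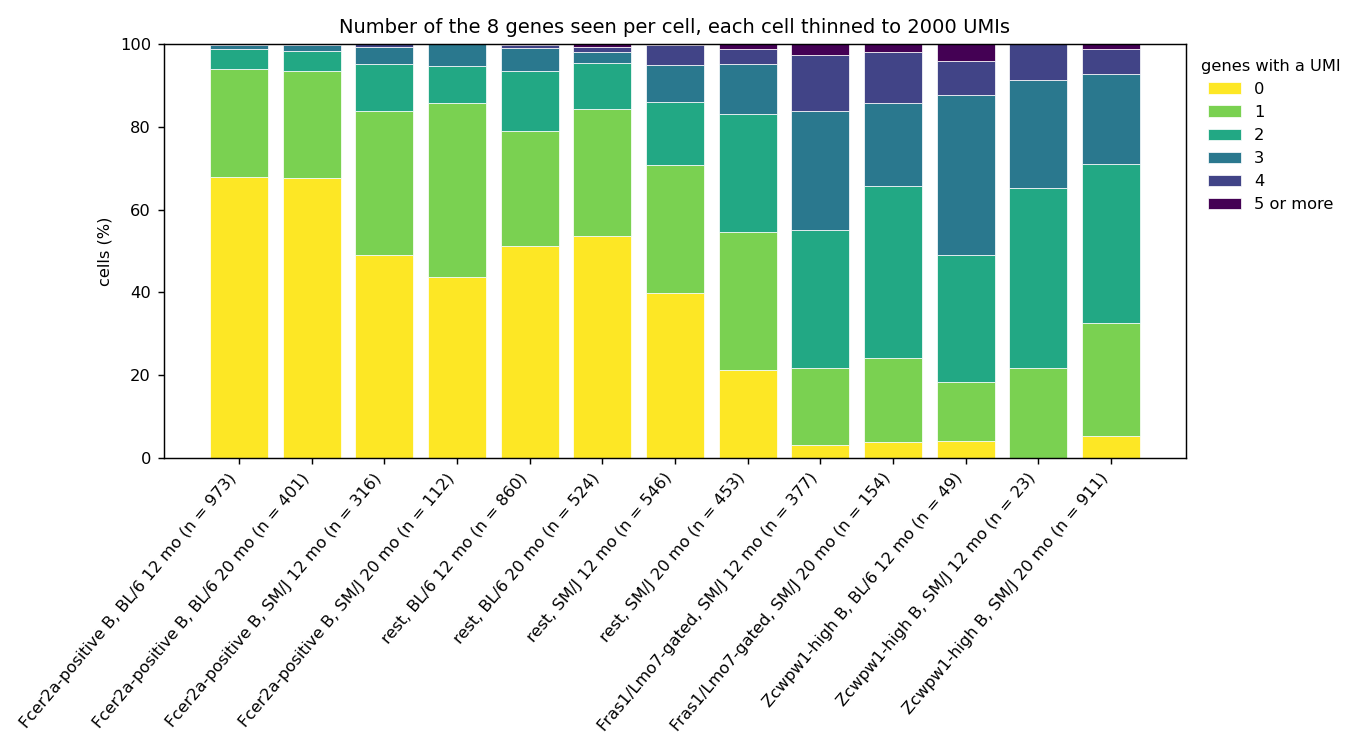
Share of cells (y axis, %) by the number of the 8 genes with a UMI (colours) in each B cell subset and library (x axis, with the number of cells; subsets of under 20 cells are left out), every cell thinned to 2000 UMIs. Cells with 3 or more genes make up 51.0% of the Zcwpw1-high cells of BL/6 at 12 months and 1.23% of its Fcer2a-positive cells.

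Over all B cells, the ages were compared within each strain. In SM/J, 3 of 8 members were past 2-fold at 20 over 12 months (19.3% of 12924 genes), 1 higher (8.91% of genes) and 2 lower (10.4% of genes). Sox5 went from 485 to 1325 CPM, a log2 ratio of 1.45 (1.4 to 1.5), with 459 to 503 CPM in the aliquots at 12 months and 1230.4 to 1512 at 20 months. Nr3c2 went from 199 to 73.5 CPM, at -1.44 (-1.54 to -1.33), with aliquots of 185 to 223 and 66.6 to 78.0 CPM. Cd5 went from 8.35 to 1.63 CPM, at -2.36 (-3.02 to -1.72), on 60 and 33 UMIs. For each of these genes the aliquots of the ages did not overlap. Bhlhe41 was at 0.47, Il5ra at -0.04, Zbtb32 at 0.01, Hepacam2 at -0.65 and Fcrl5 at -0.85.

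The make-up of the B cells was then held fixed. Zcwpw1-high cells held 4.39% of the B cell UMIs of SM/J at 12 months and 77.2% at 20 months. Subset shares of 20 months combined with subset levels of 12 months gave a log2 ratio of 1.48 for Sox5, and levels of 20 months with shares of 12 months gave 0.69, beside the observed 1.45. For Nr3c2 the same sums gave -0.23 and -0.18, beside the observed -1.44, and for Cd5 -0.88 and -1.55, beside -2.36. For Fcrl5 they gave -1.64 and -0.34, beside -0.85. The sums with levels of 12 months rest on the 23 Zcwpw1-high cells of that age. These cells held 2 UMIs of Fcrl5 and 1 of Cd5, so -1.64 and -0.88 are uncertain. With Zcwpw1-high cells left out, Sox5 was at 0.90 and Nr3c2 at -0.13, while Bhlhe41 turned to -0.28 and Zbtb32 to -0.45. With Fras1/Lmo7-gated cells left out as well, Cd5 was at -0.43 and Sox5 at 0.99, while Nr3c2 turned to 0.022, Fcrl5 to 0.32, Hepacam2 to 0.16 and Il5ra to 0.30. With each cell thinned to 2000 UMIs, which weights cells equally, Nr3c2 was at -0.70, and as a mean of per-cell CPM at -0.73. A mitochondrial limit of 5% moved Cd5 to -1.07 and Il5ra to 0.57, and a minimum of 4000 UMIs moved Fcrl5 to -1.16.

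In BL/6, 1 of 8 members was past 2-fold at 20 over 12 months (5.73% of 11486 genes, 3.53% higher and 2.19% lower). Zbtb32 went from 14.4 to 31.8 CPM, at 1.14 (0.78 to 1.5), with aliquots of 12.4 to 16.2 and 26.1 to 35.7 CPM that did not overlap. It was at 0.78 when thinned to 2000 UMIs, 0.82 as a mean of per-cell CPM and 2.27 with a mitochondrial limit of 5%. Of the 6 plasma cell genes, 5 were past 2-fold higher in the same comparison, Jchain from 101 to 2267 CPM. Plasma-gated cells numbered 1 and 10. In the remaining cells outside the plasma and Fras1/Lmo7 gates, Zbtb32 was at 23.0 CPM (18.4 to 28.4) and 38.4 CPM (31.0 to 47.0), and the part of the plasma cells in the ratio was not tested. The other 7 members were between -0.56 for Fcrl5 and 0.04 for Sox5. Cd5 among them, at -0.24, was at 0.98 with the B cell gate at 1 Cd79a UMI.

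**Figure D4:**
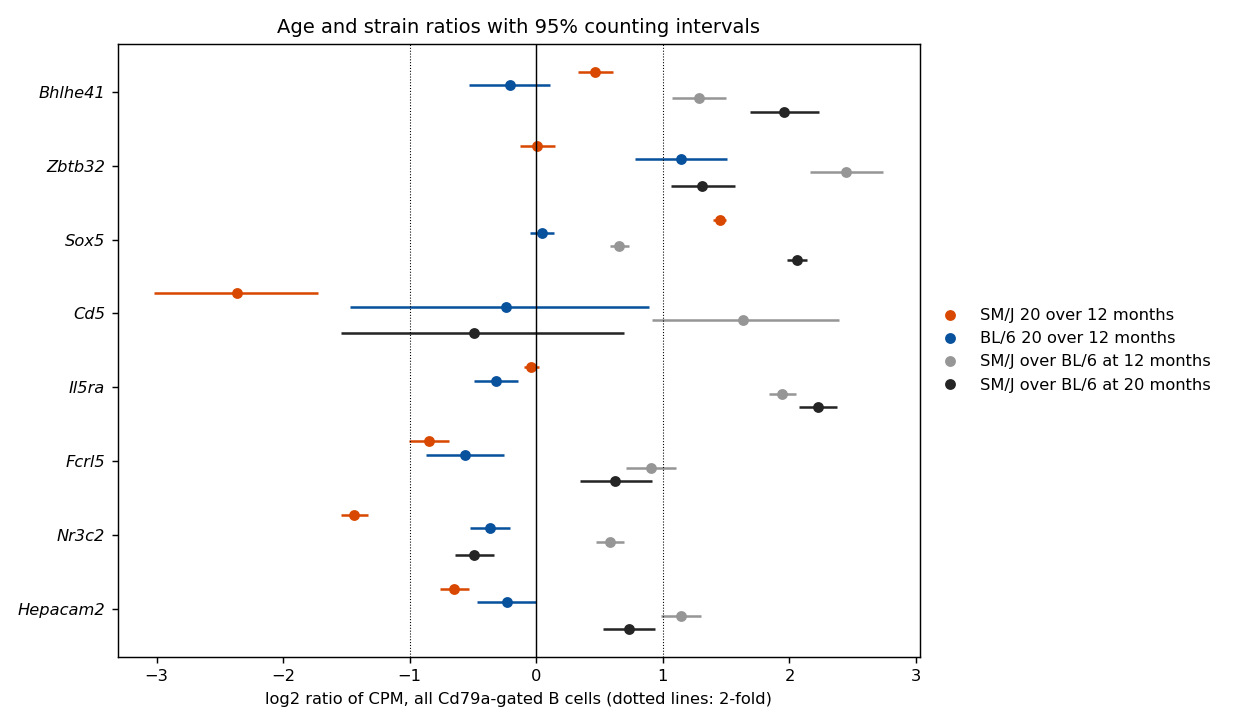
Log2 ratio of CPM over all B cells (x axis, dotted lines at 2-fold) for each gene (y axis) in the 2 age and 2 strain comparisons (colours), with conditional binomial 95% counting intervals as lines; comparisons share libraries. Sox5 stands at 1.45 with age in SM/J and 0.04 in BL/6, and Il5ra at 1.94 and 2.22 between strains.

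Between strains, SM/J over BL/6, 5 of 8 members were past 2-fold at 12 months (14.8% of 11938 genes), all higher (8.28% of genes higher and 6.49% lower). Zbtb32 was at 2.45 (2.16 to 2.74), Il5ra at 1.94 (1.84 to 2.05), Cd5 at 1.63 (0.92 to 2.39), Bhlhe41 at 1.28 (1.07 to 1.5) and Hepacam2 at 1.14 (0.98 to 1.30). At 20 months 4 of 8 were past 2-fold (30.4% of 12755 genes), all higher (13.7% of genes higher and 16.7% lower): Il5ra at 2.22 (2.08 to 2.37), Sox5 at 2.06 (1.98 to 2.14), Bhlhe41 at 1.95 (1.69 to 2.23) and Zbtb32 at 1.31 (1.06 to 1.57). Nr3c2 and Cd5 were both at -0.49 at 20 months. Each strain comparison shares a library with each age comparison. With Zcwpw1-high cells left out, Zbtb32, Bhlhe41, Fcrl5 and Hepacam2 at 20 months were at 0.88, 1.23, 1.48 and 1.45, and Fcrl5 at 12 months at 1.36. In the same setting Nr3c2 at 20 months turned to 0.86 and Cd5 to 0.15, and Nr3c2 was at 0.19 when thinned to 2000 UMIs and at 0.16 as a mean of per-cell CPM. Cd5 was at -1.92 with the gate at 1 Cd79a UMI. With Fras1/Lmo7-gated cells left out as well, Bhlhe41, Cd5 and Il5ra at 12 months were at 0.92, 0.72 and 1.3. Among B cells of at least 4000 UMIs, Bhlhe41 and Hepacam2 at 12 months were at 0.92 and 0.89 and Zbtb32 at 20 months at 0.56, while thinning to 2000 UMIs put Zbtb32 at 20 months at 2.06 and Fcrl5 at 1.24. A mitochondrial limit of 5% put Cd5 and Sox5 at 12 months at 0.86 and 1.68, and TMM scaling put Hepacam2 at 20 months at 1.01.

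Fcer2a-positive cells also differed between the strains: 3 of 7 members at 12 months (10.8% of 9762 genes, 4.45% higher and 6.38% lower) and 4 of 6 at 20 months (14% of 7867 genes, 4.84% higher and 9.14% lower) were past 2-fold, all higher in SM/J. Bhlhe41 was at 1.89 (1.2 to 2.60) and 1.5 (0.47 to 2.50), and Hepacam2 at 1.23 (0.86 to 1.59) and 1.33 (0.80 to 1.85). Il5ra was at 0.90 (0.65 to 1.15) and 1.64 (1.23 to 2.06). With age, 0 of 7 members of the Fcer2a-positive cells of SM/J (7.12% of 7299 genes, 3.27% higher and 3.85% lower) and 0 of 6 in BL/6 (4.08% of 9838 genes, 1.97% higher and 2.1% lower) were past 2-fold. The counts of this paragraph are given for the main gates only. These leave the 13 cells of both gates in SM/J at 20 months out of the Fcer2a-positive cells, a choice that moved Sox5 in the subset comparisons above. Reads of SM/J were set against a reference from another strain, and the part of this in the strain ratios was not tested.

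Within the remaining cells, 4 of 8 members at 12 months (14.4% of 11076 genes, 7.67% higher and 6.69% lower) and 4 of 7 at 20 months (16.4% of 10538 genes, 7.84% higher and 8.57% lower) were past 2-fold higher in SM/J than in BL/6, Il5ra at 2.14 and 2.16. With age, 1 of 8 was past 2-fold in SM/J, Cd5 at -2.18 (8.09% of 11150 genes, 4.16% higher and 3.93% lower), and 1 of 7 in BL/6, Zbtb32 at 1.03 (6.96% of 10322 genes, 4.33% higher and 2.63% lower). Of the Fras1/Lmo7-gated cells of SM/J, in a comparison picked after the levels had been seen, 1 of 8 was past 2-fold at 20 over 12 months, Cd5 at -2.66 with an interval of -4.99 to -1.02 (9.54% of 9199 genes, 3.48% higher and 6.07% lower).

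Other genes of the same cells and pathways were read as lists in the comparison of Zcwpw1-high with Fcer2a-positive cells. Of 23 genes linked to B-1 cells, 22 had enough UMIs in SM/J at 20 months, and 12 were past 2-fold higher and 4 lower, with a median log2 ratio of 1.74 beside -0.07 over all genes. In BL/6 at 12 months 15 of 20 were higher and 1 lower (median 1.90 beside -0.31). Zcwpw1, which set the gate, is among the higher B-1 genes of both counts. The plasma cell list had a like median in SM/J, at 1.74, with 3 of 4 tested genes higher (Jchain, Xbp1 and Prdm1), and the marginal zone list was at 1.10 with 3 of 6 higher (S1pr3, Plxnd1 and Mzb1). In BL/6 the plasma list was at 1.02 with 2 of 4 higher and 1 lower, and the marginal zone list at -1.08 with 1 of 5 higher and 3 lower. Spn, which encodes the B-1 marker CD43, was lower in SM/J at 20 months (7.22 against 22.5 CPM) and higher in BL/6 (35.1 against 6.12). Cd9, a tetraspanin, had 36.3 against 115 CPM in SM/J and 96.2 against 45.5 CPM in BL/6. Arid3a, a DNA-binding protein of B-1 cells, was higher in both, at 201 against 8.18 CPM and 49.9 against 12.0 CPM, as was Ctla4, an inhibitory receptor. The Fcer2a-positive cells of SM/J at 20 months held 488764 UMIs in all, and the Zcwpw1-high cells of BL/6 at 12 months 540723. Low CPM values of single list genes in these cells, here and below, thus rest on few UMIs and are given without intervals.

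Over all genes, 11.3% were past 2-fold higher and 18.3% lower in SM/J at 20 months, and 6% higher and 20.3% lower in BL/6 at 12 months, and the counts of the lists stand beside these shares. The follicular list was low in Zcwpw1-high cells of both libraries, with 6 of 8 genes past 2-fold lower in SM/J at 20 months and 7 of 8 in BL/6 at 12 months, Fcer2a of the gate included. Of 7 tested genes of the IL-5 receptor pathway in SM/J, Csf2rb, the shared signalling chain that pairs with Il5ra, was higher (83.3 against 14.3 CPM), as was the kinase Pim1, while Jak2 and Stat5b were lower (median -0.48). In BL/6 2 of 5 were higher and 2 lower (median -0.69), and Csf2rb had 74.0 against 6.12 CPM. Il5 itself had 0 UMIs in both subsets of both libraries. Of 6 tested steroid receptor genes in SM/J, 5 were past 2-fold lower beside Nr3c2, among them the glucocorticoid receptor Nr3c1 (56.5 against 141 CPM) and Hsd11b1, a glucocorticoid-activating enzyme (3.07 against 53.2 CPM). The median was -1.60. In BL/6 2 of 6 were lower, Per1 and Hsd11b1, with a median of -0.95. Of 8 inhibitory genes of B cell receptor signalling, 3 were lower in SM/J (Cd72, Fcgr2b and Cblb) and 2 in BL/6 (Cd72 and Cblb), and 0 were higher in either, with medians of -0.87 and -0.89. The 2 of 8 in BL/6 are near the share of all genes that were lower there.

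Profiles across all classes and libraries of 50 or more cells (29 units) were compared by Pearson's r of log2(CPM + 1), a description over units that share libraries. The units hold B cells beside other lineages, so r also follows the difference between lineages. Of the Zcwpw1-high cells, only those of SM/J at 20 months reached 50. Among 12631 other genes, Il5ra was most like Ly6d (0.94), Fcrl5 most like Dnase1l3 (0.95), Hepacam2 most like Nid1 (0.94), Bhlhe41 most like the light chain segment Igkv2-109 (0.92), Zbtb32 most like Cacna1s (0.88) and Nr3c2 most like Sdhaf3 (0.87). Igkv2-109 itself was highest at 26.6 CPM, in the Fcer2a-positive cells of SM/J at 20 months. Sox5 was most like Il5ra (0.87), a member of the set. Cd5 was most like the T cell surface receptor Cd6 (0.93), and its r with the other members was between -0.18 and 0.05. Between the remaining members r ran from 0.42 (Fcrl5 and Nr3c2) to 0.89 (Bhlhe41 and Hepacam2).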

How the data were processed

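The values used are UMI counts of each gene in each cell, as deposited, with no normalization by the authors. The file headers name Cell Ranger 7.0.1 as their source. Per the submitters' processing notes Seurat 4.3.0 and mm10 were used. Neither the annotation nor the use of intronic reads was given in the sources used here. Cells were kept with at least 500 UMIs, 200 genes and at most 10% mitochondrial UMIs, and doublets called by Scrublet in scanpy 1.11.5 per strain (0.775% to 1.34%) were left out. This left 3398, 3102, 2407 and 2689 cells of BL/6 at 12 and 20 months and SM/J at 12 and 20 months, with median depths of 4060, 4914, 4729 and 8837 UMIs. Libraries of 1 strain shared 0 barcodes.

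Counts were summed per class and library, and ratios carry conditional binomial intervals. As there is 1 library per strain and age, no test across libraries was made. On simulated counts for SM/J with age over all B cells (12892 genes), the rule that calls a gene past 2-fold recovered 200 of 200 genes changed 4-fold and called 1.55% of unchanged genes. The simulated counts held counting error only, and the changed genes had more UMIs than the rule requires. These values therefore give no rate of false calls between the libraries. Cells of other lineages were gated on markers (Cd3 genes, Ncr1, Klrb1c and Klre1, C1qa and C1qb, Lyz2 and Csf1r). Named genes are the 8 members in every class, for each member the genes of most similar profile, and members of the lists. Members, gates and lists were chosen with earlier results of these data known. Gene positions come from GENCODE vM21, which held 99.8% of the gene identifiers. Software was Python 3.11.15, scipy 1.17.1 and edgeR 4.0.16 (TMM scaling only).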

Additional observations from a re-analysis of the deposited data

Results flagged for a closer look

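Among remaining B cells, Zbtb32 and Sox5 had age ratios of opposite sign in the strains, with counting intervals on either side of 0. The log2 ratio of 20 over 12 months of Zbtb32 was -0.57 in SM/J and 1.03 in BL/6, and the aliquots of the ages did not overlap in either strain. In BL/6, 5 of the 6 plasma cell genes were past 2-fold higher with age among the same cells (median log2 ratio 1.93), against 0 of 6 in SM/J, where 1, Tnfrsf17, was lower (median -0.24). Over all genes, 4.33% were higher and 2.63% lower in BL/6 (median -0.02), and 4.16% higher and 3.93% lower in SM/J (median -0.03). Outside the plasma and Fras1/Lmo7 gates Zbtb32 had 23.0 and 38.4 CPM in BL/6 and 58.2 and 54.5 CPM in SM/J. The age ratio of Sox5 was 0.83 in SM/J and -0.11 in BL/6. The Sox5 aliquots did not overlap in SM/J (459.6 to 522 against 861 to 914 CPM) but did in BL/6 (358 to 491 against 276 to 507 CPM). Zcwpw1, below its gate in these cells, went from 14.9 to 37.9 CPM in SM/J (1.35) and from 15.1 to 11.6 CPM in BL/6 (-0.37). The part of the plasma genes and of Zcwpw1 in these ratios was not tested. The difference between strains was not tested, since there is 1 library per strain and age.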

How the results depend on the processing

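Of 200 counts of members past 2-fold under an alternative, 189 stayed within 1.5 times the main count and 11 moved. The share of all genes past the limit under each alternative is not given here. The counts below therefore have no background beside them and describe the settings. The count for SM/J with age (3) was 5 at 1.5-fold, 1 without Zcwpw1-high cells and 0 without Zcwpw1-high and Fras1/Lmo7-gated cells, where Nr3c2 turned to 0.022. That for BL/6 with age (1) was 0 when thinned to 2000 UMIs and as a mean of per-cell CPM. The strain count at 12 months (5) was 3 among B cells of at least 4000 UMIs and 3 without Zcwpw1-high and Fras1/Lmo7-gated cells. The count for remaining over Fcer2a-positive cells of SM/J at 20 months (4) was 2 with Cd79a at 1 UMI, 1 with both-gated cells counted as Fcer2a-positive, 2 among B cells of at least 4000 UMIs, and between 2 and 5 with an aliquot left out (2 without aliquot 2). Of 1382 log2 ratios under an alternative, 226 moved beyond their counting interval, and 60 had the other sign. One of these, that of Nr3c2 above, belonged to a ratio past 2-fold. The other 59 belonged to ratios not past 2-fold, and 29 of them lay beyond the counting interval. Of 88 shares of cells at 1000 UMIs, 65 moved, lower by construction. TMM scaling moved the median of all genes by 0.16 for SM/J with age, 0.28 for SM/J over BL/6 at 20 months and 0.38 for Zcwpw1-high over Fcer2a-positive cells of SM/J at 20 months. The 4000-UMI limit and the removal of both subsets were added after the data were seen. No paired analysis was possible because each strain and age has 1 library and the labels give no shared replicate numbers.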
